A study of Mus musculus with 6 samples.

Results

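Leukocyte adhesion molecules were examined as 9 named genes of the deposited hippocampal RNA-seq table. They were the selectins Sele and Selp, the selectin ligand Selplg, the endothelial immunoglobulin-type ligands Vcam1 and Icam1, the integrin chains Itgam, Itgb2 and Itga4, and the junction molecule Pecam1. They were chosen by name, as the entries whose gene name was one of these symbols, among 41386 genes in the table. Of the 9, 8 had reads and passed the filter on low counts, and 18569 genes of the whole table passed it. Itgam was listed at 0 reads in every library, which is taken up below.

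The study asked how gene expression in the hippocampus changed after cerebral ischemia/reperfusion (I/R). The I/R group held 3 libraries from C57BL/6 mice (C57BL/6J in the study's methods) aged 56 days, with 1.5 h of middle cerebral artery occlusion by a filament and 24 h of reperfusion. The sham group held 3 libraries from mice of the same strain and age, which per the study's methods had the same surgery with no filament inserted. Per those methods the mice were male, and the hippocampus was taken from the operated side. In a sentence on both proteomic and transcriptomic analyses, they state pooling of 3 hippocampi for each proteomic run. The study's figure legend gives 3 hippocampal samples for each RNA-seq replicate. The p-values therefore measure the variation between libraries that may each be a pool, and not between single mice. Each library was whole tissue, so fewer cells of a type and less RNA per cell cannot be told apart.

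Leukocytes leave the blood in steps. Selectins on activated endothelium catch leukocytes through glycoproteins such as the Selplg product PSGL-1, and integrins on the leukocyte then bind immunoglobulin-type ligands on the endothelium and stop the cell. Leukocytes finally pass between endothelial cells at junctions that contain PECAM-1. Brain endothelium is known to display few selectins at rest and more after inflammatory stimuli.

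Libraries held 37493042 to 44788547 counts, and a floor of 3 counts in a library corresponded to 0.0659 to 0.0872 CPM (read counts relative to library size, after TMM scaling of the library sizes). The floor covers counting error only, whereas SDs and SEs include the variation between libraries. Markers of hippocampal neurons, led by Snap25 and Syt1, were all detected, with 6 of 8 lower after I/R and none higher. Their summed level was 4910 to 5141 CPM in sham and 1306, 2536 and 2756 CPM in I/R replicates 1, 2 and 3. I/R replicate 1 thus had the lowest neuronal sum, and it also lay farthest from the sham libraries on the first principal component. Choroid plexus markers, led by Ttr and Kl, were lowest in I/R replicate 3 and sham replicate 1, with sums of 32.6 and 36.4 CPM against 1589 to 4400 CPM in the other libraries. Kl stood less far apart than the sum, at 9.13 and 24.0 CPM in those libraries and 31.9 CPM in I/R replicate 1. This tissue borders the hippocampus, and the part of the dissection in the results was not tested. In a fit with choroid plexus level as a covariate, chosen after seeing the data, 8 of the 8 tested adhesion genes were called. The same fit called 7333 of all 18569 tested genes.

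Of the 8 tested adhesion genes, 8 were called, 6 higher and 2 lower in I/R. A gene was called at a Benjamini-Hochberg adjusted p under 0.05 in edgeR's quasi-likelihood test and a fold change beyond 1.2, up or down. Sele, Selp, Icam1, Itgb2 and Pecam1 rose several-fold, Vcam1 rose slightly, and Selplg and Itga4 fell. The background was high, since 41.8% of all tested genes were called, 21.8% higher and 19.9% lower. The median log2 fold change (log2 FC) was 2.08 over the adhesion genes and 0.03 over all tested genes. With library size scaling alone the median of all genes was 0.28, and no adhesion gene changed direction. The I/R and sham libraries did not overlap for 7 of the 8 genes, the exception being Vcam1, and 57.4% of all tested genes did not overlap. For each of those 7 genes the exact two-sided permutation p was 0.1, the smallest that 3 libraries against 3 can give.

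**Figure D1:**
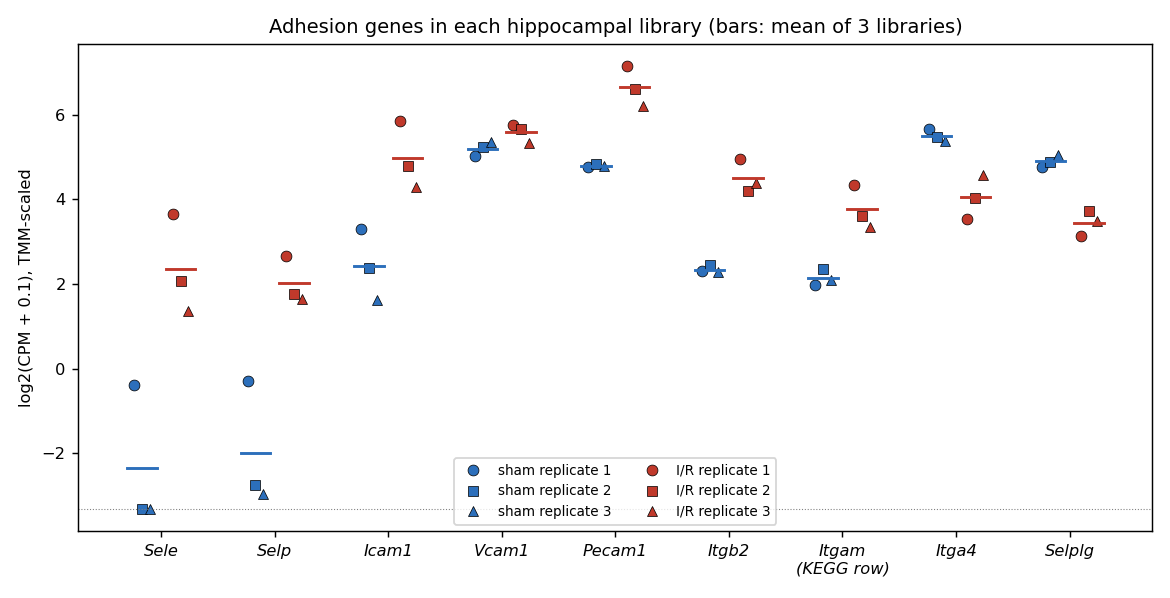
Level of each adhesion gene in every library, as log2 of TMM-scaled CPM plus 0.1, with sham in blue, I/R in red, a marker shape per replicate and bars at the mean of the plotted values. The red points lie above the blue points for Sele, Selp, Icam1, Pecam1, Itgb2 and the Itgam entry identified by its KEGG text, below them for Itga4 and Selplg, and among them for Vcam1; the dotted line marks a count of 0.

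Sele, Selp and Icam1, 3 of the genes for endothelial proteins induced in inflammation, had a RefSeq promoter among the reference sequences used here (build GRCm38.p6). They are shown because all 3 rose from low levels in sham, so the choice followed the results. The Itgam entry identified by its KEGG text also rose from a low level in sham, 4.36 CPM against 5.94 CPM for Icam1. The Itgam window, described below, held no match. Each sequence is the 250 bases before the annotated start, on the + strand, at chr1:164047984-164048233 for Sele, chr1:164115014-164115263 for Selp and chr9:21015690-21015939 for Icam1. Capitals mark matches on either strand to GGNNTTTCC (a form of the NF-κB site), TGANTCA (the AP-1 site) and TATAAA (the TATA box).
Sele: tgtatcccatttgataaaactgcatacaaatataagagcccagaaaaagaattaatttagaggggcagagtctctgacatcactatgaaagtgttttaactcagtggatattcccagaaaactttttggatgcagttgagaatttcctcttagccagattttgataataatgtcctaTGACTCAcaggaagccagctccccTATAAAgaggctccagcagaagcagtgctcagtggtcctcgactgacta
Selp: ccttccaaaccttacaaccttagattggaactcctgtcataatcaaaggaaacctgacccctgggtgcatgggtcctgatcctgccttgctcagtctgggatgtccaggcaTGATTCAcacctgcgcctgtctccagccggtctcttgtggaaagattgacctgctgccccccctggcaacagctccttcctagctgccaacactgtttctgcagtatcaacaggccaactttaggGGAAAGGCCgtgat
Icam1: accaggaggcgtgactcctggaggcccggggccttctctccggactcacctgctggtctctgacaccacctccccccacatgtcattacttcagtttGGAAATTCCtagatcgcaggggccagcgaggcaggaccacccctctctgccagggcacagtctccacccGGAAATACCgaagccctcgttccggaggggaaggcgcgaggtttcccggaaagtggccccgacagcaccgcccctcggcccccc
In Sele, TGANTCA began 73 bases and TATAAA 49 bases before the start. In Selp, TGANTCA began 139 bases and GGNNTTTCC, on the reverse strand, 14 bases before the start. In Icam1, GGNNTTTCC was matched 2 times on the reverse strand, beginning 153 and 84 bases before the start. Among 32851 promoter windows of the same length, 4.93% held GGNNTTTCC, 6.75% held TGANTCA and 12.4% held TATAAA on either strand. The windows of Itgam and Itga4 held no match to these motifs, to the κB consensus (held by 1643 windows) or to GAGGAAGT (a PU.1 site, held by 2.44%). The Sele, Selp and Icam1 windows likewise held neither of the last 2, and Sele held no GGNNTTTCC and Icam1 no TGANTCA. A match describes letters in the window and no binding was measured. Promoters of Selplg, Vcam1, Itgb2 and Pecam1 were not used here.

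Sele encodes E-selectin, which endothelium makes after cytokine stimulation. It is on chromosome 1 from 163058715 to 163068131, + strand (identifier MGP_BALBcJ_G0016619, coordinates of the BALB/cJ assembly as deposited, here and for all genes below). Sele had 567, 163 and 99 counts in I/R replicates 1, 2 and 3, and 26, 0 and 0 counts in sham replicates 1, 2 and 3. All 3 I/R libraries were above all sham libraries, I/R replicate 1 was far above the others, and every sham read was in sham replicate 1.
The mean was 6.34 ± 5.36 CPM after I/R against 0.222 ± 0.384 CPM in sham (SD, n = 3 each), for a log2 FC of 4.79 ± 1.14 (SE; adjusted p = 0.0117, edgeR). Of all tested genes, 0.775% had a larger fitted rise. The call depended on I/R replicate 1, without which the log2 FC was 3.84 (edgeR adjusted p = 0.124), and it was also lost without a count filter (edgeR, 0.0960) and in DESeq2's Wald test (0.0674), with adjusted p from 0.00423 to 0.124 over all 13 alternatives. Without sham replicate 1 the remaining sham libraries were at 0. The I/R mean of Sele, to which I/R replicate 1 added most, was 78.7 times the floor of 3 counts per library (fitted log2 fold change 10.99). Against sham replicate 1, the I/R mean was 9.52 times as high and the lowest I/R library 3.72 times.

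Selp encodes P-selectin, which endothelium and platelets store in granules and move to the surface. It lies near Sele on chromosome 1, from 163125941 to 163161145, + strand (MGP_BALBcJ_G0016621). Selp counted 286, 131 and 122 reads after I/R against 28, 2 and 1 reads in sham. As for Sele, I/R replicate 1 was highest and sham replicate 1 held nearly all sham reads, and the groups did not overlap.
The mean was 4.20 ± 1.80 CPM after I/R against 0.265 ± 0.392 CPM in sham, for a log2 FC of 3.95 ± 0.85 (SE; adjusted p = 0.00773, edgeR). Selp remained called in all 13 alternatives. Without sham replicate 1, the I/R mean was 52.2 times the floor, with a fitted log2 fold change of 6.61. Against sham replicate 1, the I/R mean was 5.86 times as high and the lowest I/R library 4.25 times. Entries on the opposite strand, Gm16587 and Gm16548, cover 8.30% and 4.29% of the Selp span. They had at most 10 counts in any library, and whether the counting used strand is not stated.
Platelet markers, led by Itga2b and Pf4, summed to 11.7 to 26.2 CPM in I/R and 4.04 to 4.48 CPM in sham, with 2 of 4 tested markers higher. The part of platelets in the Selp result was not tested.

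Icam1 encodes the ligand of the β2 integrins. It is on chromosome 9 from 17788102 to 17802021, + strand (MGP_BALBcJ_G0034404). Icam1 counted 2645, 1109 and 776 reads after I/R against 381, 207 and 102 reads in sham. Every I/R library was above every sham library, and replicate 1 was the highest of each group.
The mean was 35.1 ± 20.4 CPM after I/R against 5.94 ± 3.48 CPM in sham, for a log2 FC of 2.56 ± 0.51 (SE; adjusted p = 0.00592, edgeR). The call was lost on leaving out I/R replicate 1, at a log2 FC of 1.98 (edgeR adjusted p = 0.0759). It was also lost without a count filter (edgeR adjusted p = 0.0639), and its adjusted p spanned 0.000301 to 0.0759 in the 13 alternatives.

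Vcam1 encodes the ligand of the integrin formed by α4 and β1 chains, and in brain it is made by endothelium and other vascular cells. It is on chromosome 3 from 113971734 to 113991490, − strand (MGP_BALBcJ_G0027777). Vcam1 counted 2447, 2024 and 1612 reads after I/R against 1262, 1525 and 1396 reads in sham. On the CPM scale the levels were 53.8, 50.6 and 40.3 after I/R against 32.3, 37.5 and 40.6 in sham.
I/R replicate 3 was below sham replicate 3, so the groups overlapped (exact two-sided permutation p of 0.2). The log2 FC was 0.39 ± 0.14 (SE; adjusted p = 0.0491, edgeR), the smallest of the adhesion genes, and 29.4% of all tested genes had a larger rise. The call held in 7 of 13 alternatives, with adjusted p from 0.00953 to 0.172. It was lost with DESeq2 size factors (edgeR adjusted p = 0.0528), and without I/R replicate 2 (0.146) or sham replicate 1 (0.172), 2 (0.122) or 3 (0.0699), with log2 fold changes of 0.30 to 0.46 in those 5 fits. The remaining case is given with the processing alternatives.

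Pecam1 encodes a molecule of endothelial junctions that is also on platelets and leukocytes. It is on chromosome 11 from 105695524 to 105797694, − strand (MGP_BALBcJ_G0019252). The study selected it among immune genes changed both in these libraries and in its proteome, and followed those genes by RT-qPCR. These libraries took part in that selection, so the call of Pecam1 here is not independent evidence. Pecam1 counted 6462, 3887 and 2973 reads after I/R against 1061, 1150 and 945 reads in sham.
The lowest I/R library was well above the highest sham library, and the sham libraries were nearly equal. The mean was 105 ± 34.4 CPM after I/R against 27.6 ± 0.582 CPM in sham, for a log2 FC of 1.92 ± 0.21 (SE; adjusted p = 0.000736, edgeR). It remained called in all 13 alternatives, at 1.63 to 2.19. In the deposited FPKM (fragments relative to a gene length and library size) Pecam1 had the highest mean of the adhesion genes in I/R, at 53.5 ± 20.2 (n = 3), with 11.7 ± 0.160 FPKM in sham.

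The integrin chains differed. Itgb2 encodes the β2 chain, shared by the leukocyte integrins that bind Icam1, and is on chromosome 10 from 75345523 to 75381087, + strand (MGP_BALBcJ_G0017335). Itgb2 counted 1417, 732 and 831 reads after I/R against 188, 219 and 163 reads in sham. The groups were far apart in every pairing of libraries, with I/R replicate 1 highest.
Its mean was 23.4 ± 6.80 CPM after I/R against 4.98 ± 0.356 CPM in sham, for a log2 FC of 2.23 ± 0.21 (SE; adjusted p = 0.000464, edgeR). The range over 13 alternatives was 1.97 to 2.50, and it was called in each.

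Itgam encodes the αM chain, which pairs with β2 to form Mac-1 on microglia and myeloid cells. The entry named Itgam, on chromosome 7 from 128567499 to 128633501, + strand (MGP_BALBcJ_G0033055), had 0 counts in all 6 libraries and was not tested. An entry with no gene name overlapped it on the same strand, from 128567456 to 128627107, with 99.9% of its span inside the named entry. The KEGG text of the table gives that entry the symbol Itgam.
The unnamed entry counted 921, 483 and 403 reads after I/R against 151, 204 and 144 reads in sham, and its groups did not overlap. Its mean was 14.1 ± 5.38 CPM after I/R against 4.36 ± 0.595 CPM in sham, for a log2 FC of 1.70 ± 0.27 (SE; adjusted p = 0.00249, edgeR), and it was called in all 13 alternatives at 1.34 to 1.97. It is not one of the 9 named members and is described because its span and text are those of Itgam. The length of the unnamed entry was 4682 bases, equal to that of transcript Itgam-201 in GENCODE M21, and that of the named entry was 4805 bases, against 4803 for transcript Gm49368-201.
Of 50-base stretches of Itgam transcripts in GENCODE M21, 66.3% were shared with transcripts of another gene, where for the other members the share was at most 2.27%. How reads on both entries were treated is not given in the sources used here, so it is not known whether the unnamed entry holds all reads of this locus. Its change between groups is a ratio within the same entry.

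**Figure D2:**
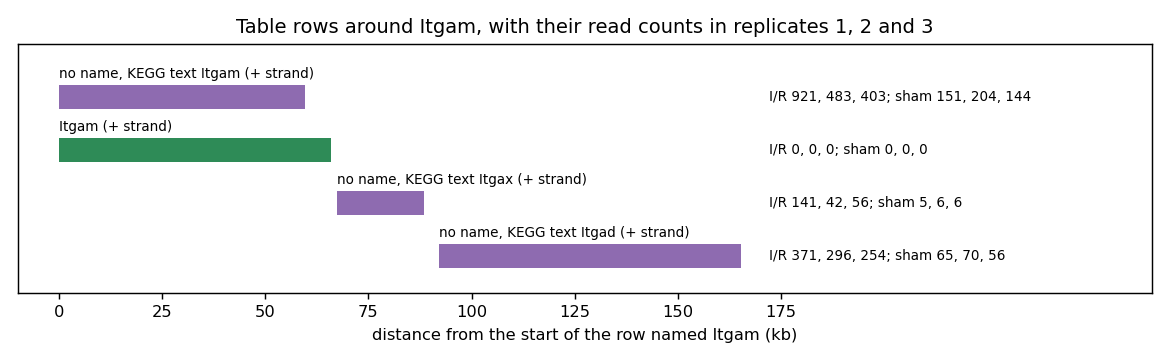
Table entries at the Itgam locus drawn by distance in kb from the start of the entry named Itgam, green where the entry has a gene name and purple where only its KEGG text gives a symbol, with read counts of replicates 1, 2 and 3 at the right. The named entry has 0 counts in all 6 libraries, and the unnamed entry that overlaps it has 921, 483 and 403 after I/R against 151, 204 and 144 in sham.

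Itga4 encodes the α4 chain, which binds Vcam1 with the β1 chain. It is on chromosome 2 from 76833002 to 76913242, + strand (MGP_BALBcJ_G0025849), and its end overlaps Cerkl on the opposite strand over 3.22% of its span. Itga4 counted 529, 654 and 950 reads after I/R against 1991, 1804 and 1420 reads in sham. All I/R libraries were below all sham libraries, with I/R replicate 1 lowest.
Its mean was 17.2 ± 6.12 CPM after I/R against 45.6 ± 4.97 CPM in sham, for a log2 FC of −1.40 ± 0.24 (SE; adjusted p = 0.00304, edgeR). It was called in all 13 alternatives, from −1.73 to −1.05 (the latter on the unlike scale of log2(FPKM + 1)), and 1.75% of tested genes had a larger fall. Cerkl counted 79, 47 and 69 reads after I/R against 125, 105 and 86 in sham, far below those of Itga4.

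Selplg encodes PSGL-1, the main ligand of P-selectin, and in the brain microglia also express it. It is on chromosome 5 from 113309011 to 113322986, − strand (MGP_BALBcJ_G0029901). Selplg counted 394, 522 and 445 reads after I/R against 1063, 1196 and 1147 reads in sham. The I/R libraries were all below the sham libraries, again with I/R replicate 1 lowest.
Its mean was 10.9 ± 2.21 CPM after I/R against 30.0 ± 3.09 CPM in sham, for a log2 FC of −1.45 ± 0.16 (SE; adjusted p = 0.000762, edgeR). It was called in all 13 alternatives, from −1.62 to −1.15 (the latter on the unlike scale of log2(FPKM + 1)). Its fall was among the larger ones, as 1.42% of tested genes fell further.

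**Figure D3:**
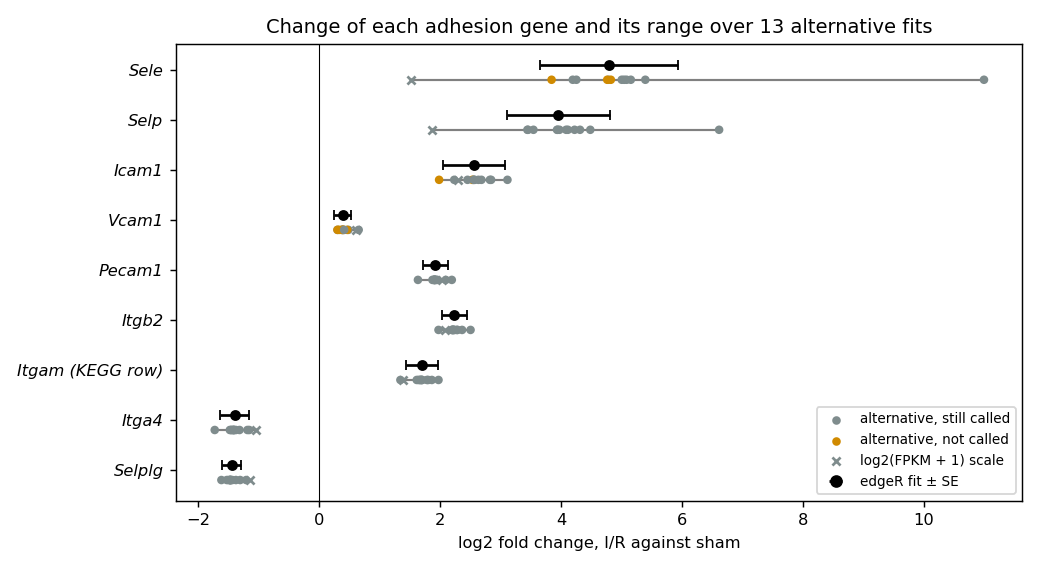
Log2 fold change of each adhesion gene in I/R against sham, with the black points and bars for the edgeR value ± SE and the smaller marks for 13 alternative fits, orange where the gene was not called. Vcam1 is at 0.39 with 6 orange marks, and the marks of each gene stay on its side of 0. Sele spans 1.51 to 10.99, and its low end is the fit on log2(FPKM + 1), a scale unlike that of the other fits.

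Levels per length were ordered differently in the groups. The length behind the deposited FPKM was the same in every library but was not always the length listed in the table, being 37.6% of it for Itga4, 39.9% for Selp, 42.9% for Selplg, 60.6% to 69.4% for Itgb2, Pecam1 and Vcam1 and all of it for Sele and Icam1. Order between genes therefore depends on the length used. On the FPKM scale in sham, Selplg was highest at 27.6 ± 2.87 FPKM, above Vcam1 at 12.4 ± 1.39, Pecam1 at 11.7 ± 0.160 and Itga4 at 11.4 ± 1.28 FPKM, and the libraries of these last 3 neighbours overlapped. Itgb2 at 2.53 ± 0.162 and Icam1 at 2.14 ± 1.26 FPKM also overlapped, and Selp and Sele were last at 0.178 ± 0.263 and 0.0701 ± 0.121 FPKM. In I/R, Pecam1 was above all others, followed by Vcam1 at 19.5 ± 3.54, Icam1 at 15.4 ± 9.66 and Itgb2 at 14.3 ± 4.88 FPKM, and then by Selplg, with overlap between neighbours. Itga4 at 5.09 ± 1.64, Selp at 3.39 ± 1.63 and Sele at 2.44 ± 2.17 FPKM were below them. With the listed length in place of the FPKM length, a choice made after seeing the data, Selplg was still highest in sham. There Itga4 no longer overlapped Pecam1, and the mean of Icam1 was above that of Itgb2, with overlapping libraries. After I/R, Pecam1 still had the highest mean but overlapped Icam1. The mean of Icam1 was then above that of Vcam1, and that of Sele above those of Itga4 and Selp, with overlap between neighbours.
Ratios within a library need no scaling between libraries, and the length used moves a ratio by the same factor in each of them. The ratio of Icam1 to Vcam1 in FPKM was 1.15, 0.584 and 0.513 after I/R against 0.322, 0.145 and 0.0779 in sham, without overlap. The ratio of Itga4 to Vcam1, receptor chain to ligand, was 0.160, 0.239 and 0.435 after I/R against 1.16, 0.873 and 0.751 in sham, also without overlap. The ratio of the unnamed Itgam entry to Itgb2 was lower in I/R, at 0.379 ± 0.0622 against 0.553 ± 0.0410 in sham. For Sele to Selp the ratios overlapped, since sham replicate 1 was at 0.438 and I/R replicate 3 at 0.383. The exact two-sided permutation p was 0.1 for the first 3 ratios and 0.2 for Sele to Selp.

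The marker lists of cells that carry these molecules also moved. The 10 endothelial markers, led by Slc2a1 and Flt1, summed to 533 to 733 CPM in I/R and 456 to 494 CPM in sham, with 6 higher, 1 lower and 3 not called. Relative to that sum, Pecam1 was 19.4%, 16.9% and 13.9% after I/R against 5.96%, 6.02% and 5.56% in sham, a log2 difference of 1.50 ± 0.17 (SD). Vcam1 was 7.33%, 8.80% and 7.56% after I/R against 7.08%, 7.99% and 8.21% in sham, a log2 difference of 0.02 with overlapping groups (−0.16 with the geometric mean of the list). Relative to the same sum Icam1 was higher by 2.19, Selp by 3.66 and Sele by 4.34 on the log2 scale, with groups that did not overlap.
Microglia markers, led by Csf1r, summed to 318 to 465 CPM in I/R and 278 to 315 CPM in sham. They did not move together, as 3 of 9 were higher and 4 lower. P2ry12, Tmem119, Siglech and Gpr34, named because they are the 4 that fell, had log2 fold changes of −1.67, −0.68, −1.91 and −0.92. Relative to the summed markers, Itgb2 was higher by 1.82 and the unnamed Itgam entry by 1.27, and Selplg and Itga4 were lower, at −1.81 and −1.80 on the log2 scale.
Monocyte and macrophage markers, led by Fn1 and Mrc1, summed to 178 to 315 CPM in I/R and 101 to 111 CPM in sham, with 6 of 7 tested markers higher and none lower. Neutrophil markers, led by Csf3r and S100a8, summed to 40.9, 10.7 and 10.6 CPM in I/R and 4.33 to 5.89 CPM in sham, with 4 of 6 tested higher. Most of the sham sum was Csf3r, at 4.15, 3.59 and 3.89 CPM in sham and 8.11, 2.08 and 3.88 CPM after I/R. Csf3r was not called, at a log2 fold change of 0.28 (adjusted p = 0.639, edgeR). The defining neutrophil gene Ly6g had 3 counts or fewer in every library, and Cxcr2 and Ngp had none in sham. I/R replicate 1, highest for 7 of the 9 entries described here, thus also had the highest neutrophil sum. In the joint list of monocyte and neutrophil markers, Fn1 alone was at 267, 147 and 165 CPM after I/R and 92.3, 100 and 93.3 CPM in sham. Most of the sum of that list was therefore Fn1. Relative to the sum of that list, Itgb2 was higher by 1.06 and the unnamed Itgam entry by 0.50, with Selplg at −2.58 and Itga4 at −2.57. With the geometric mean of that list the unnamed Itgam entry was at −0.18, the opposite direction, Itgb2 at 0.37 and Selplg at −3.26. T and B lymphocyte markers were near 0, at 0.523 to 1.03 CPM in all libraries. The part of cell numbers in these results was not tested.

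**Figure D4:**
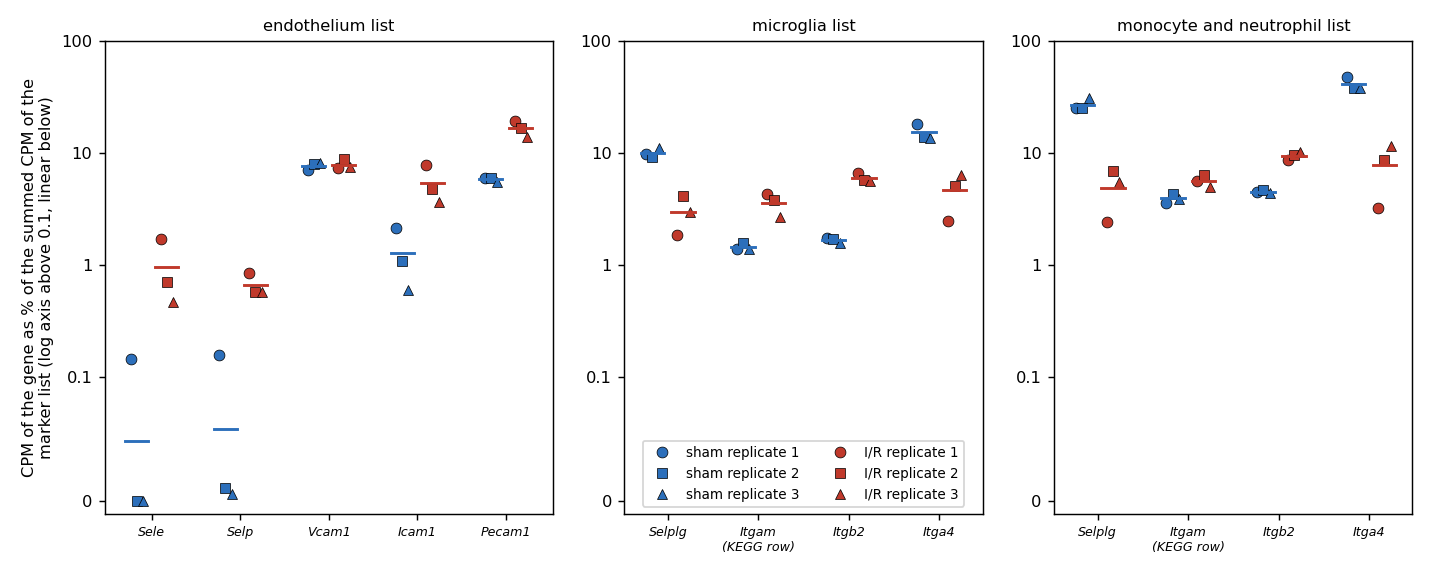
CPM of each adhesion gene as a percent of the summed CPM of a list of marker genes in the same library, for endothelium, microglia, and monocytes with neutrophils, on an axis that is logarithmic above 0.1% and linear below. Pecam1 is at 13.9% to 19.4% of the endothelial sum in I/R and at 5.56% to 6.02% in sham, and the Vcam1 points of both groups lie together.

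Other genes of the adhesion cascade were described from a list of 54, chosen with earlier results of these data known. Of the 49 tested, 26 were higher, 7 lower and 16 not called, with a median log2 fold change of 0.69. The 67.3% called stands beside 41.8% of all tested genes. Fut7, Chst4 and Madcam1 were among those under the count filter, and Cd99 had no entry.
Among selectin-ligand carriers, Cd44, a glycoprotein that also binds hyaluronan, rose by 4.53 ± 0.26 (adjusted p = 0.000169, edgeR), with 3.59 ± 0.941 CPM in sham and 83.3 ± 22.6 CPM after I/R. Podxl, a sialomucin, rose by 1.73, and Glg1, an E-selectin ligand, fell by 0.52 on the log2 scale. Cd34 was not called, at −0.05. Of the enzymes that build selectin ligands, 3 of 6 tested rose and none fell, led by Fut4 at 2.05 and Gcnt1 at 1.61.
Of the immunoglobulin-type ligands, Icam2, an endothelial ligand of β2 integrins, rose by 1.84 and Mcam rose by 1.19. Icam5, a neuronal member of the family, was lower at a log2 fold change of −1.59 ± 0.37 (adjusted p = 0.0106, edgeR), and Alcam at −0.48. Among the other integrin chains, Itgb1, the β1 partner of α4, rose by 1.44 ± 0.13 (adjusted p = 0.000408, edgeR), in the direction opposite to Itga4. Itgax and Itgad, identified by KEGG text, rose by 3.61 and 2.12. Itgal, the α chain of LFA-1, was not called at 1.10 ± 0.43 (adjusted p = 0.0716, edgeR), and Itgb7, the other β partner of α4, was not called at 0.16.
Of the 12 integrin activation genes, 6 rose and 2 fell. Fermt3, kindlin-3 of blood cells, rose by 2.33 and the adaptor Fyb by 2.14, while Cyth1 and Rasgrp2 were lower at −0.66 and −0.56. Of 9 tested junction genes, 5 rose and 2 fell. Cdh5, VE-cadherin, rose by 1.91, very near the 1.92 of Pecam1, and Pvr rose by 2.13, whereas Sirpa and Cd99l2 were lower at −0.86 and −0.44. Of the other endothelial docking proteins, Stab1 rose by 1.89 and Vwf, von Willebrand factor, by 1.30. Of the proteases that shed adhesion molecules, Adam8 rose by 5.15 ± 0.44 (adjusted p = 0.000345, edgeR) and Adam17 by 0.69.

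**Figure D5:**
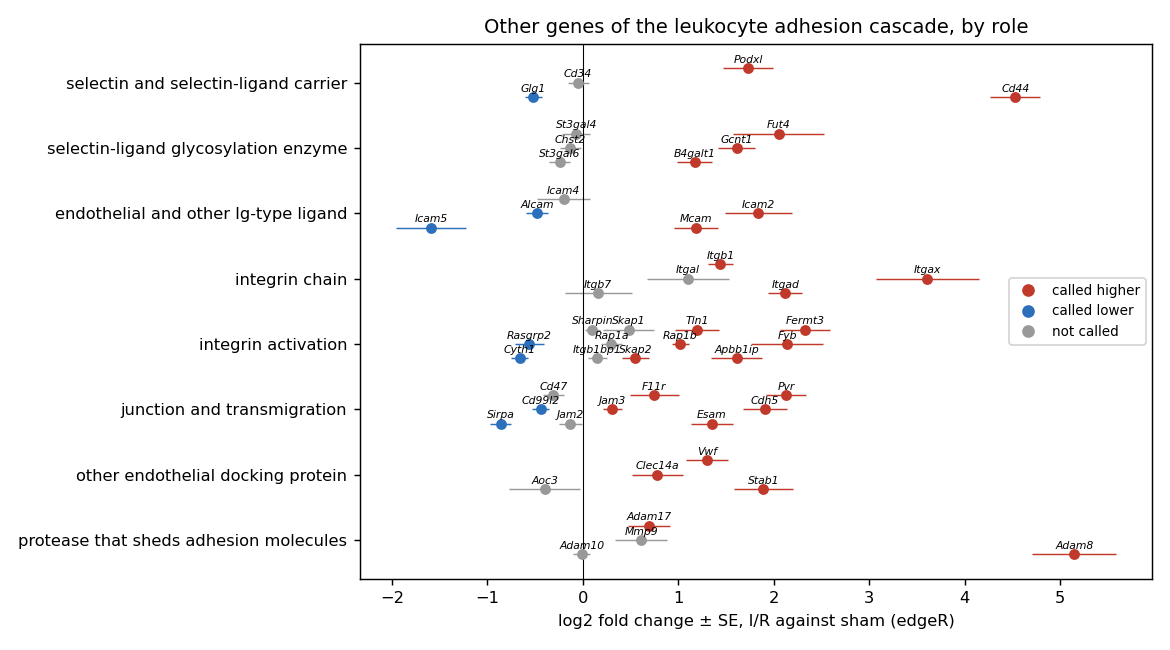
Log2 fold change ± SE of 49 other tested genes of the adhesion cascade in I/R against sham, grouped by role, in red for genes called higher, blue for genes called lower and grey for genes not called. Adam8 at 5.15 and Cd44 at 4.53 lie farthest to the right and Icam5 at −1.59 farthest to the left.

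The genes with the most similar profiles were named by the root mean square difference of log2(CPM + 0.1) over the 6 libraries, after removing each gene's mean, among 14055 named genes with a mean of at least 1 CPM. Sele and Selp were nearest to each other, at 0.52. Pecam1 was nearest to Cdh5, at 0.03, followed by Chac1 and Tram2. Itgb2 was nearest to Psmb8 at 0.04, Itga4 to Lmo1 at 0.08 and Selplg to Gabrd at 0.09. Icam1 was nearest to Pla2r1 at 0.22, and Vcam1 to Gm13716 at 0.03. The measure is over 6 libraries in 2 groups, so it takes in the difference between the groups.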

How the data were processed

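RNA-seq of mouse hippocampus was analysed in 3 I/R and 3 sham libraries, grouped by sample title. The authors aligned reads with TopHat to an Ensembl genome and counted them per gene with HTSeq, and the deposited table gives these raw counts. It also gives FPKM, whose formula is not stated and whose values match the authors' counts divided by library total and by a gene length, within 1% of the listed length for 25.8% of 12520 genes with at least 100 counts in every library and shorter for 74.2%, and the authors' own comparison columns (fold change, p-value), which were not used. Identifiers are of the BALB/cJ annotation, whereas the labels give C57BL/6 mice. The submitters' processing notes name Bowtie 0.12.2 and build mm8, which the identifiers do not match. Strand use and the treatment of reads on several genes are not stated. The table's 41390 lines held 41386 genes after 4 split lines were rejoined.

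Counts were tested with edgeR 4.0.16 (R 4.3.3) by filterByExpr, TMM scaling and the robust quasi-likelihood F-test, without covariates, with Benjamini-Hochberg adjustment over 18569 genes. The SE was the log2 fold change divided by the square root of F. On simulated counts with 200 changed genes, 60.5% of 2-fold and 81.4% of 4-fold changes were recovered, with 0 wrong directions. That is a far smaller share of changed genes than the 41.8% called in the data. The recovery in the data may therefore differ. Totals were 37493042 to 44788547 counts. Levels are CPM, mean ± SD. Ratios were compared by exact two-sided permutation.

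Alternatives were DESeq2 1.42.0 size factors, library size only, no count filter, DESeq2's Wald test, limma 3.58.1 on log2(FPKM + 1), a replicate block, leaving out each library, and a choroid plexus covariate, the last chosen after seeing the data. Levels were also computed with the listed gene length. The entry carrying Itgam in its KEGG text was also added then. A stricter rule of fold change over 2 was tried as well. All members were named. Of each role of the pathway list, the called genes with the 2 largest rises and falls were named, and of each marker list the 2 most abundant genes, except where a gene is not reported here; Cd34, Itgb1, Itgal, Itgb7, the falling microglia markers and Ly6g, Cxcr2 and Ngp were added after their values were seen. For each member with counts, up to 3 genes of nearest profile were found. The members and all lists were chosen with earlier results of these data known.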

Additional observations from a re-analysis of the deposited data

How the results depend on the processing

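Directions of all 8 tested adhesion genes and of the unnamed Itgam entry were kept in all 13 alternatives, and Selp, Selplg, Itgb2, Itga4, Pecam1 and the unnamed entry were called in each. Sele was not called without a count filter (log2 fold change 4.76, edgeR adjusted p of 0.0960) or in DESeq2's Wald test (4.82), and Icam1 was not without a count filter (2.53). Vcam1 was not called with DESeq2 size factors (0.38). Correlations of same-numbered deviations were −0.0967, 0.0556 and −0.184, within the −0.171 to 0.267 of other pairs. So few values cannot decide whether the replicate numbers pair the libraries. With a replicate block Vcam1 was at 0.39 and not called (edgeR adjusted p of 0.105), and 6332 genes were called against 7756. The block lowered the edgeR adjusted p of Icam1 to 0.000301, of Sele to 0.00423 and of Selp to 0.00467. It raised that of Selplg, Vcam1, Itgb2, Itga4 and Pecam1. The causes were not tested.

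Leaving out each library gave log2 fold changes of 3.84 to 10.99 for Sele, 1.98 to 3.11 for Icam1 and 0.30 to 0.48 for Vcam1. Between 6 and 8 adhesion genes were called, 6 without I/R replicate 1. The total called was 5330 to 7976. With a fold change over 2, 2760 genes were called, 1893 higher and 867 lower, and 7 adhesion genes, all but Vcam1. With library size only, 6334 were higher and 2027 lower, against 4054 and 3702 with TMM.

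Against marker lists, Vcam1 had a log2 difference of −0.06 to 0.07 when each library was left out, and of −0.16 with the geometric mean of the endothelial list, against 0.02. With geometric means Pecam1 was at 1.32, and against microglia Selplg was at −1.26, the unnamed Itgam entry at 1.82, Itgb2 at 2.38 and Itga4 at −1.25. Against monocytes and neutrophils, Selplg was at −3.26, Itgb2 at 0.37 and the unnamed Itgam entry at −0.18, which turned its direction. Few reads limit Sele and Selp in sham, where 2 libraries were at or under 3 counts.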

Other observations

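In sham replicate 1, Sele, Selp and Icam1 had 26, 28 and 381 counts, more than in either other sham library (0 and 0, 2 and 1, 207 and 102). Pecam1 was nearly equal across the sham libraries, at 27.2 CPM in sham replicate 1 and 28.3 and 27.5 CPM in the other 2. Sham replicate 1 also had little choroid plexus RNA and the highest neutrophil marker sum in sham, 5.89 CPM against 4.58 and 4.33. Of these sums, Csf3r alone was 4.15, 3.59 and 3.89 CPM. I/R replicate 3 likewise had little choroid plexus RNA, with a marker sum of 32.6 CPM. That library was the lowest of the I/R group for Sele, Selp and Icam1. The differences between sham libraries have no replicate of their own.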
